A study of Mus musculus with 36 samples.

Results

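XY embryos that lacked the binding site of miR-17 in the Foxl2 3′ UTR were compared with XY control embryos at E11.5 (embryonic day) by RNA-seq. The comparison used the 6 libraries of 1 deposited count table, 3 named for the mutant and 3 named for the male control, out of 36 samples in the series. Per the study's methods, the mutants were homozygous and came from G4 embryonic stem cells, an XY line of C57BL/6J-129 F1 hybrid background, edited with CRISPR/Cas9 and turned into embryos by tetraploid complementation, in which the edited cells form the embryo proper. The XY controls at E11.5 matched those of the miR-17~92 comparison (below), which the labels call WT, male. The study bred that colony from a floxed allele on a C57BL/6 × 129S4/SvJae background and Tg(CAG-cre)1Nagy mice. Whether the WT embryos carried a floxed allele or the Cre is not given in the sources used here. No unedited embryo of the G4 line enters the table. The edit, the stem cell origin, the genetic background and the breeding colony therefore differ together between the groups and cannot be told apart. Whether the mutant and control libraries were prepared and sequenced together is not given in the sources used here. A batch may therefore differ along with the groups. The study's bulk RNA-seq methods give 2 pairs of gonads per replicate, without naming the Foxl2 mutants. How many edited clones gave the embryos is not given in the sources used here. The submitters describe RNA from gonad-mesonephros complexes at E11.5 and from gonads alone at E12.5, and the 6 libraries of the same mutant and its controls at E12.5 are given beside the results where they bear on them.

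FOXL2 is a forkhead transcription factor of ovarian supporting cells, the pre-granulosa cells, where it maintains the female programme and represses Sox9. At E11.5 the gonad is bipotential: in XY embryos Sry turns on Sox9 in the supporting cells, which become Sertoli cells, whereas Wnt4, Rspo1 and later Foxl2 mark the ovarian fate. A microRNA pairs with its targets mainly through its seed, bases 2 to 8, and represses them, so the edit removes a possible brake on Foxl2 while the cluster itself stays intact.

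The edited site and the microRNAs that share the seed are printed because the whole design turns on their pairing. In the annotated mouse transcript, Foxl2 is a single exon on the plus strand of GRCm38 (chr9:98955288-98958543) with a 3′ UTR of 1755 bases (chr9:98956789-98958543). It holds 1 match to the miR-17 seed, at chr9:98958043-98958049, which starts at base 1255 of the 3′ UTR. The capitals mark the 7 bases that pair with the seed in the 30 bases at chr9:98958023-98958052, plus strand.

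Foxl2 site: attttctagagggaactagaGCACTTTtgt

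In the RefSeq set (GRCm38.p6), 7 mature mouse microRNAs carry the seed that reads this site. Those of the miR-17~92 cluster on chromosome 14 and its paralogues on chromosomes X and 5 are printed with the seed in capitals.

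miR-17-5p: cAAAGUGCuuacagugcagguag
miR-20a-5p: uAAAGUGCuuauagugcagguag
miR-20b-5p: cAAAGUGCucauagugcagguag
miR-106a-5p: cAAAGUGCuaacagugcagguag
miR-106b-5p: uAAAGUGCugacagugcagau
miR-93-5p: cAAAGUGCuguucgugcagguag

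Outside the seed they differ at the first base, in their tails and, in miR-106b-5p, in length. The remaining microRNA with the seed, miR-6383, lies elsewhere on chromosome X. Of 21037 genes with an annotated 3′ UTR, 2474 (11.8%) hold the letters GCACTTT at least once on the sense strand, so the match by itself is not particular to Foxl2.

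The labels list 6 samples of the Foxl2 mutant at E11.5, 3 as eye and 3 as gonad, while the columns name no tissue, so the tissue was read from markers. Levels are CPM, counts scaled to library size and TMM factors. In these bulk samples, fewer cells of a type and less RNA per cell cannot be told apart. The gonadal and mesonephric genes Wt1 (294 to 514 CPM), Nr5a1 (74.7 to 167) and Pax2 (25.6 to 51.0) were present in all 6 libraries. The retina and lens genes Rax, Six3, Six6 and Crygd did not exceed 0.156 CPM in any library. All 6 columns thus carry gonad and mesonephros RNA, and these defining retina and lens genes were at or near 0. Genes that other tissues share with the eye were present at low levels, with Mitf at 3.16 to 5.28 CPM and Pax6 at 0.324 to 1.41 CPM. The summed level of the eye list was 23.8 to 30.1 CPM in the mutants and 16.8 to 18.9 CPM in the controls, and none of its 5 tested genes passed (median log2 difference 0.54, all 5 above 0). The list of 8 periocular and eyelid genes summed to 174 to 285 CPM in the mutants and 137 to 172 CPM in the controls, with no call (median 0.60, 7 above 0). Both lists were thus higher in every mutant than in any control by their sums, and the part of such tissue in the results was not tested. Cryaa, a lens crystallin, was at 0.740, 0.831 and 0.851 CPM in the mutants and at most 0.0682 CPM in the controls.

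The control columns were set against the XY controls of the E11.5 table of the miR-17~92 mutants, over 19628 genes found in both. Among genes with at least 50 counts in both columns, the CPM ratio lay within 5% of its median for 63.5% to 69.2% of genes when the column numbers matched and for 14.0% to 21.01% when they did not. Same-numbered columns also had the highest correlations of log2 CPM across genes (0.982 to 0.983, against 0.975 to 0.978 for other numbers). The control libraries are therefore shared with the comparisons of the miR-17~92 mutants.

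Total counts were 44755685 to 69425482 in the mutants and 23021098 to 29285898 in the controls. Mutant 3 stood apart: its summed level of 8 neural genes was 4.26 times the mean of the other mutants, that of 12 erythroid genes was 2.90 times, and that of 12 mesonephros genes was 0.587 times. By the same measure it was at 0.697 for gonadal somatic, 0.477 for pre-granulosa and 0.600 for germ cell genes, and at 1.17 for Sertoli genes. Control 2 stood apart from the other controls, which correlated with each other at 0.991 in log2 CPM across genes. Its correlation was 0.982 and 0.987 with controls 1 and 3, 0.987 and 0.990 with mutants 1 and 2, and 0.976 with mutant 3. For 163 of the 215 genes that passed the test, control 2 lay on the mutants' side of the other controls. Whether this share is higher than over all genes tested was not tested.

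Foxl2 itself was barely expressed and did not pass the test. It had 208, 69 and 32 counts in the mutants and 22, 41 and 32 in the controls, which corresponds to 3.02, 1.55 and 0.556 CPM against 0.892, 1.40 and 1.37 CPM. The mean was 1.71 ± 1.24 CPM (SD, n = 3) in the mutants and 1.22 ± 0.283 CPM (SD, n = 3) in the controls. Mutants 1 and 2 were above all controls and mutant 3 was below all of them, so the groups overlapped. The log2 difference, mutant minus control, was 0.49 (SE 0.55, edgeR adjusted p = 0.597), and an exact two-sided permutation test of the log2 CPM of the 6 libraries gave p = 0.8, where the smallest p that 3 against 3 allows is 0.1. Without mutant 1 the difference was -0.22 and without mutant 3 it was 0.90, and neither passed. At E12.5 Foxl2 was at 0.298, 0.801 and 1.37 CPM in the mutants and 0.538, 1.497 and 0.677 CPM in the controls (log2 difference -0.24, adjusted p = 0.864).

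Within 200 kb of Foxl2, only Faim, an inhibitor of Fas-induced apoptosis, and Pik3cb, a catalytic PI3-kinase subunit, had enough counts for the test. Neither passed it (log2 differences -0.21 and -0.12, adjusted p = 0.497 and 0.655). Mir17hg, the host transcript of the cluster, was at 14.8, 11.6 and 15.99 CPM in the mutants and at 39.3, 15.7 and 35.4 CPM in the controls. Control 2 lay close to the mutants, whose highest library exceeded it, and the difference of -1.09 (SE 0.32) had an adjusted p of 0.105.

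Across the transcriptome, 14880 genes were tested and 215 (1.44%) passed an adjusted p of 0.05, 102 (0.685%) higher and 113 (0.759%) lower in the mutants. The groups did not overlap for any of the 215, against 29.8% of all genes tested. The count rested on single libraries: it was 3375 without control 2 and 29 without control 1 or without control 3, and 37 and 54 without mutants 1 and 2. Of the 215 genes, 24 (0.161% of genes tested) passed in the fit reported here and in all 12 alternatives, 18 of them higher and 6 lower. These 24 hold no gene of the sex determination pathway. They include the imprinted RNA H19, the X-inactivation RNA Xist, Mid1, Glo1, Ap2m1, Sumo2, Cdh12 and Pdzd7, the mitochondrial mt-Co2 and mt-Atp6, and a group of genes that closely copy another gene.

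None of the 11 sex determination genes examined passed the test. Sry, the testis-determining gene, was at 2.34, 3.95 and 0.921 CPM in the mutants and at 3.16, 4.16 and 3.89 CPM in the controls (adjusted p = 0.397). Sox9, the SRY target that drives Sertoli differentiation, was at 90.4, 83.8 and 73.7 CPM in the mutants and at 47.4, 69.0 and 58.2 CPM in the controls. All mutants were above all controls for Sox9, yet its log2 difference of 0.50 (SE 0.15) had an adjusted p of 0.0966, and it passed only with DESeq2, with no filter on low counts and without control 2. Amh, a hormone of Sertoli cells, spread too widely for a comparison, from 9.30 to 54.8 CPM in the mutants and from 4.70 to 55.7 CPM in the controls.

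**Figure D1:**
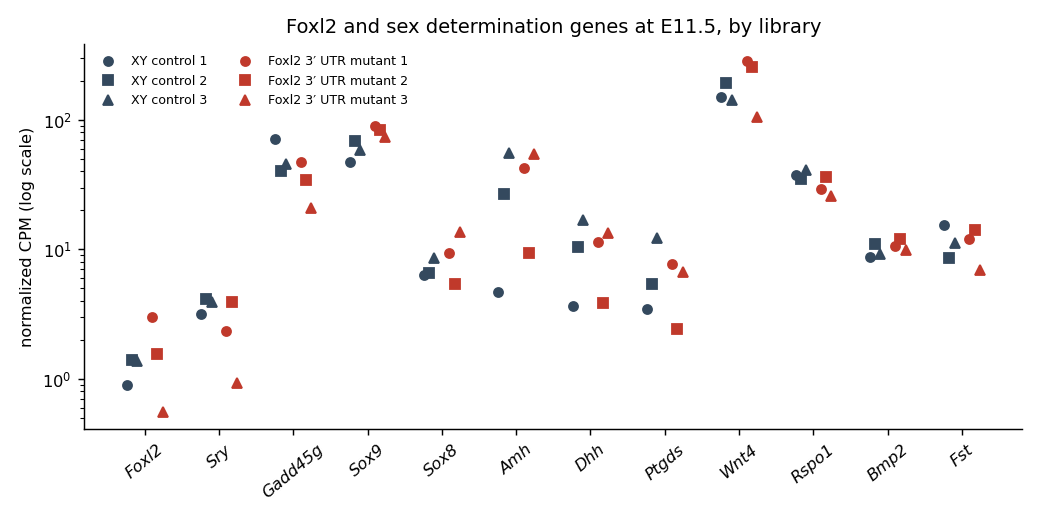
Normalized CPM on a log axis of Foxl2 and 11 sex determination genes at E11.5, with 1 point per library (dark, XY controls; red, mutants; marker shape, library number). The groups overlap for each gene except Sox9, where the mutants lie between 73.7 and 90.4 CPM and the controls between 47.4 and 69.0 CPM.

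On the ovarian side, Wnt4, a secreted signal that opposes testis formation, was at 283, 259 and 106 CPM in the mutants and 150, 194 and 141 CPM in the controls (log2 difference 0.41, adjusted p = 0.475). Mutant 3 was below every control and the other mutants were above every control. Wnt4 passed only when mutant 3 was left out (log2 difference 0.73, edgeR adjusted p = 0.0486). Rspo1, which amplifies Wnt signals, was at 29.1, 36.3 and 26.0 CPM against 37.7, 35.1 and 40.8 CPM (log2 difference -0.31, adjusted p = 0.206). Fst and Bmp2, which FOXL2 and Wnt signals control in the ovary, differed by -0.09 and 0.17 with adjusted p of 0.878 and 0.536. As whole lists, none of 12 Sertoli genes (median log2 difference -0.04), none of 10 pre-granulosa genes (0.13), none of 16 Sry activators (0.05) and none of 19 Wnt pathway genes (0.05) passed. The median over all genes tested was 0.01, and with 1.44% of all genes called, no call in lists this short is near the background. Of 9 tested genes listed as FOXL2 responsive, Star alone passed and the median was 0.17.

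Germ cell genes gave no call either: the 11 tested had a median of -0.47, and 10 of them had a value below 0. None of 14 listed targets of the cluster passed (median 0.29). Genes with GCACTTT in the 3′ UTR had 18 calls among 2026 tested (0.888%) and a median of 0.06, and genes without it had 146 among 12077 (1.21%) and a median of 0.02, both under the 1.44% of all genes. Genes with the letters had longer 3′ UTRs (median 2430 bases, against 828), and the part of length was not tested.

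Genes of steroid hormone synthesis were higher in the mutants at E11.5, and the same genes were lower at E12.5. STAR carries cholesterol into mitochondria, and CYP11A1, HSD3B1 and CYP17A1 are successive enzymes that make steroids from it in fetal Leydig and adrenal cells. Star was at 22.8, 32.7 and 23.1 CPM in the mutants and at 14.8, 12.47 and 13.8 CPM in the controls, a log2 difference of 0.94 (SE 0.17, adjusted p = 0.0406). Hsd3b1 was at 8.88, 12.8 and 11.4 CPM against 3.89, 1.91 and 4.83 CPM (1.64, SE 0.33, adjusted p = 0.0497). Cyp17a1 had few reads, at 1.94, 1.64 and 1.77 CPM in the mutants and 0.284, 0.136 and 0.214 CPM in the controls (3.08, SE 0.39, adjusted p = 0.0101). These 3 genes were higher in every mutant than in any control. Cyp11b1, an adrenal cortex enzyme, also rose (3.53, SE 0.67, adjusted p = 0.0442), from at most 0.171 CPM to between 0.813 and 3.44 CPM. Cyp11a1 did not pass, at 9.55, 15.9 and 8.81 CPM against 9.89, 8.04 and 6.92 CPM (0.46, adjusted p = 0.286). Thus 4 of 5 tested genes of the fetal Leydig list, Cyp11b1 included, were called higher, where 0.685% of all genes were. Calls of this size were fragile, since Star passed in 7, Hsd3b1 in 5 and Cyp17a1 in 11 of the 13 settings, and Cyp11b1 in 6 of the 10 settings in which it was tested.

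At E12.5 the controls had far more of these transcripts. Star was then at 48.9, 84.5 and 46.0 CPM in the mutants and 210, 112 and 231 CPM in the controls, and Cyp17a1 at 65.1, 135 and 45.9 CPM against 494, 236 and 570 CPM. The log2 differences were -1.63 for Star and -2.41 for Cyp17a1 (adjusted p = 0.0241 and 0.0190), and all 7 genes of the fetal Leydig list passed as lower in the mutants, where 1.14% of all genes did. A test of the difference between the stages passed for Star, Hsd3b1, Cyp17a1 and Cyp11b1 (adjusted p from 0.00792 to 0.0219), while Cyp11a1 missed it (adjusted p = 0.0729). Fetal Leydig cells arise in the testis only after E11.5, and the adrenal primordium lies beside the gonad and mesonephros. The adrenal gene Mc2r, the receptor for corticotropin, was at 7.91, 9.82 and 5.68 CPM in the mutants and 5.76, 5.15 and 6.07 CPM in the controls (adjusted p = 0.255), and Cyp21a1, an enzyme of the adrenal cortex, was at 2.57, 2.74 and 4.67 CPM against 0.203, 0.102 and 1.41 CPM (adjusted p = 0.112). The summed level of the 4 adrenal genes was 45.1 to 55.7 CPM in the mutants and 34.6 to 50.4 CPM in the controls. The part of adrenal tissue in the difference was not tested, and stage differs together with kit and dissected tissue.

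**Figure D2:**
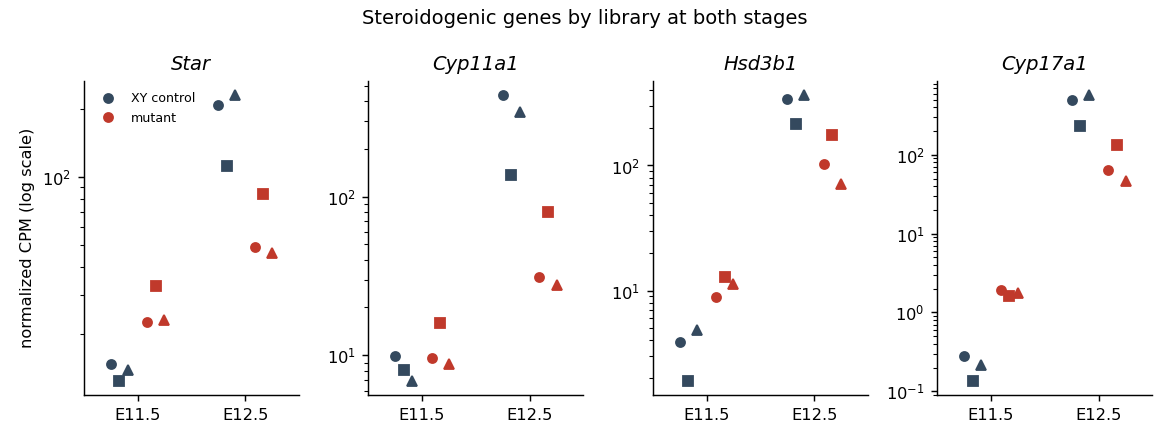
Normalized CPM on log axes of 4 steroidogenic genes in the 3 XY control (dark) and 3 mutant (red) libraries of each stage; each panel has its own scale. For Star, Hsd3b1 and Cyp17a1 the mutants lie above the controls at E11.5 and below them at E12.5, while Cyp11a1 overlaps at E11.5 (8.81 to 15.9 CPM against 6.92 to 9.89 CPM).

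H19 had the lowest log2 difference of the 14880 genes tested. This long noncoding RNA is imprinted and made from the maternal allele, and its neighbour Igf2, a fetal growth factor, is made from the paternal allele. H19 was at 9.20, 23.4 and 10.3 CPM in the mutants and at 5471, 5825 and 4910 CPM in the controls, a log2 difference of -8.57 (SE 0.46, adjusted p = 1.59e-04). Igf2 was at 940, 965 and 902 CPM against 354, 505 and 446 CPM (1.11, SE 0.15, adjusted p = 0.0138), and its antisense transcript Igf2os was at 63.6, 69.0 and 65.3 CPM against 37.1, 29.9 and 34.6 CPM (0.96, SE 0.11, adjusted p = 0.00636). Every mutant was below every control for H19 and above every control for Igf2 and Igf2os. Reads of Igf2 and Igf2os overlap on opposite strands, and whether the counting used strand is not given in the sources used here. H19 passed in all 13 settings, Igf2os in 12 and Igf2 in 9. At E12.5 H19 was again at 11.02 to 15.05 CPM in the mutants and 2169 to 2579 CPM in the controls (-7.56, adjusted p = 4.50e-08) and Igf2os was higher (0.96, adjusted p = 0.0185), but Igf2 did not pass (0.34, adjusted p = 0.368).

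Of 28 tested genes on the imprinted list, H19 and Kcnq1ot1 passed as lower and Igf2 as higher (10.7%, against 1.44% of all genes). The median was -0.06, and the groups did not overlap for 12 of the 28, where 29.8% of all genes tested did not overlap. Kcnq1ot1, the noncoding RNA that silences its cluster in cis on the paternal chromosome, was at 32.1, 30.0 and 19.9 CPM in the mutants and 180, 74.5 and 145 CPM in the controls (-2.28, SE 0.34, adjusted p = 0.0341). Settings in which Kcnq1ot1 did not pass include those without mutant 1 or without control 1 (edgeR adjusted p = 0.0954 and 0.133). Cdkn1c and Phlda2 of the same imprinted region did not pass, with Cdkn1c at 512 to 795 CPM in the mutants and 461 to 573 CPM in the controls. Meg3, Rtl1, Dlk1 and Mirg of the chromosome 12 cluster did not pass (adjusted p from 0.0901 to 0.531). Nor did Peg3, Mest, Snrpn or Igf2r.

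Several genes of the Y chromosome were much lower in the mutants, unevenly along its short arm. Kdm5d, a histone H3K4 demethylase, was at 0.624, 3.55 and 4.29 CPM in the mutants and at 101, 82.3 and 88.8 CPM in the controls (-5.03, SE 0.65, adjusted p = 0.0337). Eif2s3y, a translation initiation factor subunit next to it, was at 0.595, 4.38 and 0.626 CPM against 110, 56.9 and 95.2 CPM (-5.62, SE 0.90), but missed the threshold (adjusted p = 0.0578). The noncoding Gm29650 was at most 0.270 CPM in the mutants and at 13.9, 5.15 and 9.66 CPM in the controls (adjusted p = 0.0294). These 3 neighbours had little or no RNA in any mutant, but their calls depended on single libraries. Without control 1, Kdm5d and Gm29650 did not pass (edgeR adjusted p = 0.133 and 0.129). Eif2s3y passed without mutant 2 (edgeR adjusted p = 1.29e-04). Farther along, Uty and Ddx3y were below the controls in every mutant, and far below them in mutant 1 alone. Uty was at 11.7, 40.8 and 36.1 CPM against 41.5 to 45.9 CPM, and Ddx3y, an RNA helicase, was at 11.1, 80.5 and 70.6 CPM against 101 to 105 CPM (adjusted p = 0.416 and 0.431). On the other side, Uba1y was at 4.92, 5.37 and 2.38 CPM against 3.16 to 6.13 CPM, so its groups overlapped.

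The libraries named for the mutant at E12.5 had another pattern. Kdm5d was low in all 3 (6.71, 1.80 and 2.05 CPM, against 71.6 to 79.9 CPM in the controls, adjusted p = 9.52e-04), whereas Eif2s3y was at 92.5, 42.5 and 9.88 CPM against 57.7 to 96.4 CPM and did not pass (adjusted p = 0.571). Xist, made in quantity only from an inactive X, was low in every library at E11.5. It was near the floor in the mutants, at 0.116, 0.247 and 0.122 CPM, and at 3.33, 2.86 and 3.25 CPM in the controls (-4.30, SE 0.39, adjusted p = 0.00132). At E12.5 its levels were 0.683 to 0.992 CPM against 0.376 to 1.73 CPM. Gm47283, annotated on Y, ran the other way at E11.5, at 111, 113 and 96.6 CPM against 31.3, 18.7 and 23.8 CPM (2.12, SE 0.18, adjusted p = 0.00102), and 46.8% of its sequence is shared with other genes. Of 8 Y-linked genes tested, 3 were called (37.5%), against 0.577% to 2.16% on the autosomes and 1.55% on X.

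**Figure D3:**
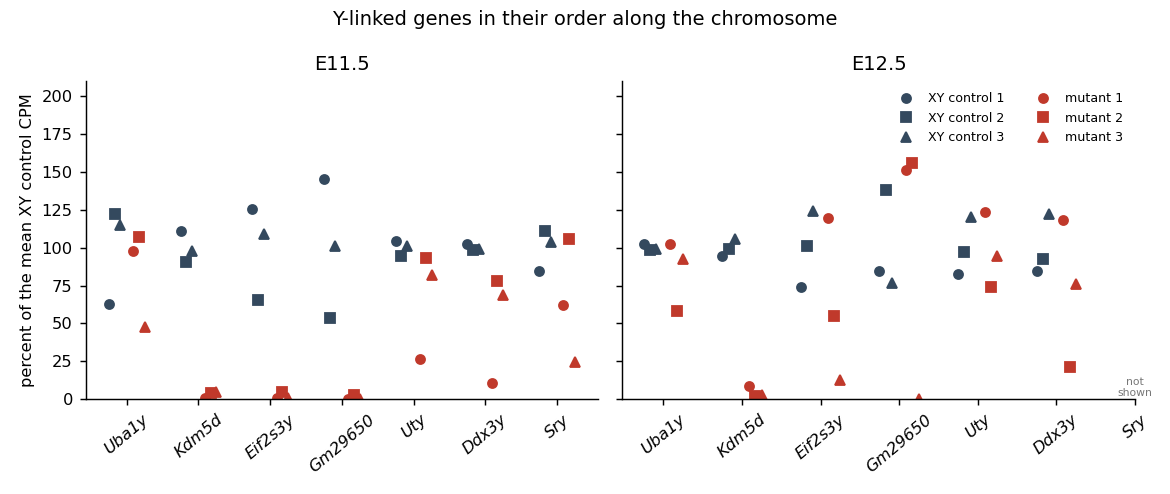
Levels of 7 Y-linked genes, in chromosome order from left to right, as percent of the mean XY control CPM, with 1 point per library at each stage (Sry is left out at E12.5, where the controls are under 1 CPM). Kdm5d is near 0 in all mutants of both stages, Eif2s3y and Gm29650 are near 0 in all mutants at E11.5 only, and Uty and Ddx3y are low in mutant 1 at E11.5.

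A run of 14 neighbouring tested genes on chromosome 16, from Eif2b5 to Polr2h (chr16:20498817-20722267, GRCm38), was higher in the mutants at both stages. It was chosen after the values were seen and is given as a description. Of the 14 genes, 6 were called higher and none lower at E11.5 (42.9%, against 0.685% of all genes for higher calls), and 12 had a value above 0. The median was 0.73, and at E12.5, in separate libraries, it was 0.79 over 12 tested genes with 6 calls. Ap2m1, the medium subunit of the clathrin adaptor AP-2, was at 302, 295 and 315 CPM in the mutants and 153, 158 and 152 CPM in the controls (0.98, SE 0.10, adjusted p = 0.00194). The other calls were Eif2b5 (0.77), Eif4g1 (0.91), both translation initiation factors, Dvl3 (0.72), a Wnt signal transducer, Abcf3 (0.63) and Psmd2 (0.83), a proteasome subunit. None of the 12 tested genes that flank the run, 6 on each side, passed at either stage. Polr2h at the far end was called at E12.5 (0.97) and not at E11.5. The flanks and the medians are therefore not independent of the choice of ends at either stage. Chrd, the nearest tested gene after Polr2h, had a difference of 0.66 (adjusted p = 0.0820), above that of Polr2h (0.38) and Clcn2 (-0.03).

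**Figure D4:**
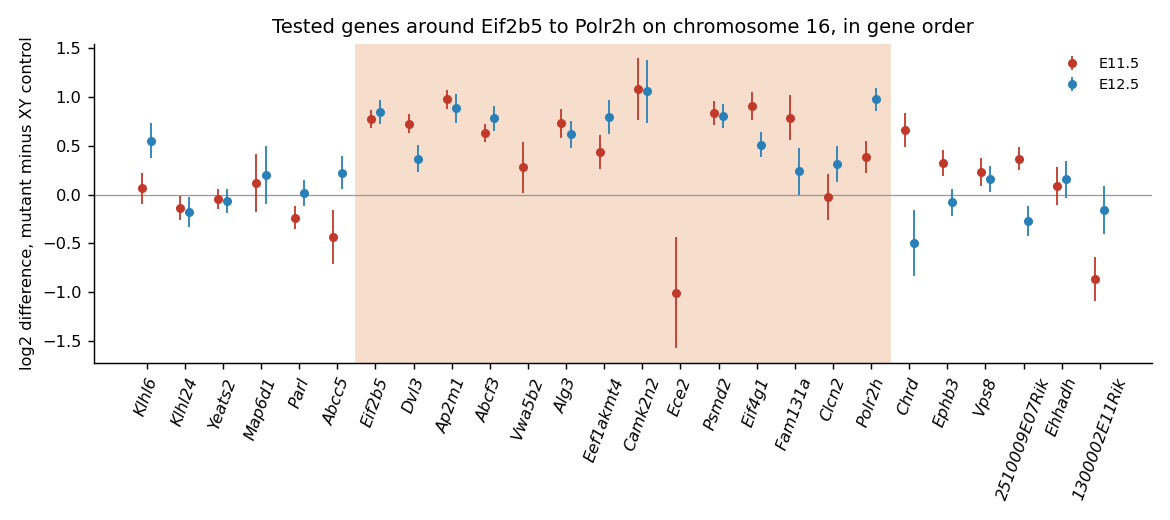
Log2 difference, mutant minus XY control, with its SE, of 26 tested genes in chromosome order at E11.5 (red) and E12.5 (blue); the shaded genes run from Eif2b5 to Polr2h. Inside the shading the median is 0.73 at E11.5 and 0.79 for the later stage, and Ece2 at -1.01 and Clcn2 at -0.03 are the exceptions at E11.5.

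Outside this run, 4 further genes called in every setting had groups that lay far apart at both stages. Mid1, a ubiquitin ligase that binds microtubules and lies at the pseudoautosomal boundary of X, was at 94.2, 110 and 105 CPM in the mutants and 20.8, 21.5 and 17.8 CPM in the controls (2.36, SE 0.12, adjusted p = 2.95e-05; 2.53 at E12.5). Glo1, which detoxifies methylglyoxal, was at 120, 113 and 107 CPM against 58.5, 61.5 and 55.6 CPM (0.95, SE 0.09, adjusted p = 0.00213), and its difference at E12.5 was 0.89. Cdh12, a neuronal cadherin, was at 3.27, 5.95 and 5.86 CPM against 0.341 to 0.405 CPM (3.78, SE 0.36), and at E12.5 it differed by 4.70. Pdzd7, a scaffold of hair cell stereocilia, fell from between 8.89 and 12.1 CPM to between 1.84 and 2.21 CPM (-2.38, SE 0.22), and by 2.21 on the log2 scale at E12.5.

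The most stable increases were in genes that are copies of others. Tpm3-rs7, a related sequence of the tropomyosin gene Tpm3, was at 93.0, 87.6 and 95.6 CPM in the mutants and 2.47, 2.59 and 3.33 CPM in the controls (5.04, SE 0.14, adjusted p = 8.76e-07), while Tpm3 itself was at 279 to 293 CPM against 287 to 300 CPM. Hmga1b, a copy of the chromatin gene Hmga1, was at 24.0, 29.1 and 31.9 CPM against 1.78, 2.08 and 2.05 CPM (3.84, SE 0.18), and Hmga1 did not pass (0.23, adjusted p = 0.353). The same held for Pcna-ps2, at 13.9 to 15.6 CPM against 1.06 to 1.24 CPM, beside Pcna (-0.06), and for Eif3j2 (3.58) beside Eif3j1 (-0.03). Each copy differed more than 10-fold between the groups, while its better-known relative had an adjusted p of 0.353 or more. Ahcyl (3.89), Gm10036 (3.66), Gm9008 (6.81) and Gm7292 (7.57) rose too, and Gm12666, which had no count in any control, was at least 85.0-fold higher by a floor of 3 counts over the control group. At E12.5 these 9 genes were called higher again, with differences from 2.55 to 5.48.

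Sequence sharing was measured for all genes as the percent of 31-base runs in a gene's transcripts that also occur in a transcript of another gene. The median was 0.308% over the genes tested, and 2.06% of them shared at least 50% of their runs. Among genes called higher, 27 of 102 (26.5%) did so, and among genes called lower, 18 of 113 (15.9%). Of the 18 stable increases, 11 reached 50%, with Ahcyl at 95.6%, Eif3j2 at 94.9%, Hmga1b at 92.7% and Tpm3-rs7 at 78.6%. Reads from such genes can be placed on more than 1 locus, and how the counting treated them is not given in the sources used here, so the levels of these genes are uncertain.

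Of 12 tested mitochondrial genes, 3 were called higher and 1 lower (33.3%, against 1.44% of all genes). The list as a whole ran lower in the mutants, with a median of -0.96 and 4 of the 12 above 0. At E12.5 the median was -0.57, and 0 of 11 tested genes were above 0. Mt-Co2 and mt-Atp6, which encode subunits of cytochrome oxidase and ATP synthase and share 100% and 99.5% of their runs with other genes, were counted at 5.30 to 12.9 CPM and 5.08 to 9.47 CPM in the mutants and at most 0.342 CPM in the controls (5.06 and 4.78, adjusted p = 9.36e-04 and 5.98e-04). Mt-Co3, another cytochrome oxidase subunit, was at 8.27 to 15.6 CPM against 0.443 to 1.14 CPM (3.92, adjusted p = 0.00194), and mt-Nd3, a subunit of complex I, was at 0.831 to 1.86 CPM against 5.73 to 21.2 CPM (-3.09, adjusted p = 0.03997). All 4 had few reads. The far more abundant mt-Co1, at 2292, 2397 and 3563 CPM in the mutants, was at 8398, 3277 and 7375 CPM in the controls (adjusted p = 0.0995). Control 2 was again nearest the mutants, and the its summed mitochondrial level was 0.391 times the mean of the other controls.

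Most antisense genes had a value below 0 in the mutants, and few of them passed the test. Of 361 tested, 18 were called (16 lower and 2 higher, 4.99% against 1.44% of all genes), 44 had a value above 0, and the median was -0.84. Of 326 tested lincRNAs, 19 were called (14 lower and 5 higher, 5.83%) with a median of -0.57, while 14168 protein-coding genes had a median of 0.02. Malat1, a nuclear RNA, was at 299, 257 and 210 CPM in the mutants and 1233, 530 and 1161 CPM in the controls (-1.93, SE 0.31, adjusted p = 0.0359). Control 2 was the lowest control for Malat1, and over antisense genes it was lower than the mean of the other controls by a median of 0.47 on the log2(CPM + 1) scale, a difference between libraries of 1 group. At E12.5 the medians were -0.27 for antisense genes and -0.12 for lincRNAs, with 1 of 215 antisense genes called lower and 5 higher. Replication-dependent histone genes, whose mRNAs end without a poly(A) tail, were listed after seeing the values: 22 of 23 tested were below 0, with a median of -0.80, none of these 22 was called, and the remaining one, H2ac23, was called higher (5.21, from at most 0.0427 CPM to between 0.697 and 1.30 CPM). Their summed level in control 2 was 0.660 times the mean of the other controls.

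Single calls in other lists are given as values, and with 1.44% of all genes called, such counts say little about the lists. Mrc1, the mannose receptor of tissue macrophages, was at 55.1, 44.9 and 49.4 CPM in the mutants and 30.9, 28.0 and 22.1 CPM in the controls (0.88, SE 0.15, adjusted p = 0.0305), the only call among 10 macrophage genes, whose summed level was 164 to 229 CPM in the mutants and 121 to 160 CPM in the controls. Vegfa, the angiogenic growth factor, was at 163, 154 and 150 CPM against 337, 215 and 310 CPM (-0.88, SE 0.16, adjusted p = 0.0406), the only call among 11 hypoxia and glycolysis genes. At E12.5, 5 of these 11 genes were called higher, against 0.79% of all genes, with a median of 0.71 and a summed level of 1332 to 1711 CPM in the mutants and 712 to 834 CPM in the controls. Egr1, an immediate early gene, was called higher (0.85, SE 0.16, adjusted p = 0.0433), the only call among the 8 tested genes of its list. Rpl29 (-0.81) and Rpl13a (-1.11) were called lower out of 79 ribosomal protein genes with a median of -0.13, and Hoxd4 (-2.83) out of 35 Hox genes with a median of -0.25. All 12 erythroid genes had values above 0 (median 1.45) without a call, and the groups did not overlap for 10 of them, against 29.8% of all genes. Mutant 3, the library with the most, had a summed level of 11640 CPM, against 3740 CPM in the lowest mutant and 1960 to 2609 CPM in the controls. At E12.5 the sums were 3939 to 8493 CPM in the mutants and 2005 to 2691 CPM in the controls, with 3 of the 12 genes called higher.

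The genes called at E11.5 were then read at E12.5, in libraries of other embryos. Of 215, 188 were tested at E12.5, 144 had the same direction, and 42 were called in the same direction (28 higher and 14 lower), where 1.93% of all genes tested at E12.5 were called. The 42 are 22.3% of the 188 genes and 15.2% of the 276 genes called at E12.5. Another 7 were called in the opposite direction, 5 of them higher at E11.5, among them Star, Hsd3b1, Cyp17a1 and Cyp11b1. Of the 24 stable genes, 22 had the same direction at E12.5 and 18 were called in it. The difference between the stages passed its own test for 87 of 15412 genes (0.564%), of which 25 were among the 215.

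**Figure D5:**
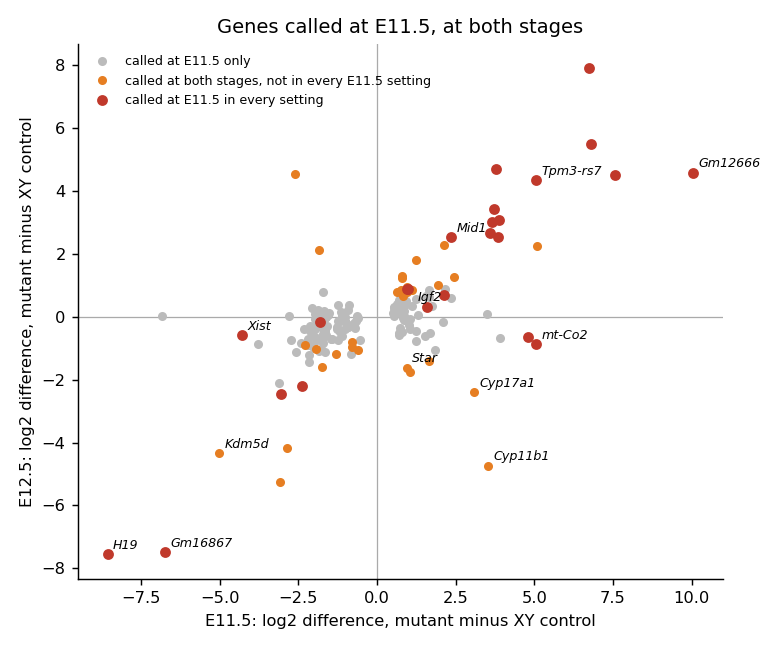
Log2 difference, mutant minus XY control, at E11.5 (x axis) and E12.5 (y axis) of the 188 genes called at E11.5 and tested at both stages, with grey for genes called at E11.5 only, orange for genes called at both and red for the 24 called at E11.5 in every setting. H19 and Gm16867 lie at the lower left, the copies Tpm3-rs7 and Gm12666 at the upper right, and Cyp17a1, Cyp11b1 and Star at the lower right, with opposite signs.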

How the data were processed

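RNA-seq counts of 3 Foxl2 3′ UTR mutant and 3 XY control libraries per stage were used as deposited; the authors mapped reads to mm10 and counted them per gene with featureCounts of Subread, with versions, strand setting and the handling of multiply mapped reads not given in the sources used here. Labels and column names were joined by group, since columns name no tissue. Members, gene lists and tests were chosen with earlier results of these data known.

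Genes with at least 1 CPM in 2 of the 6 libraries were tested with edgeR 4.0.16 in R 4.3.3 (TMM, robust quasi-likelihood test, Benjamini-Hochberg adjusted p under 0.05); this and 12 alternatives make 13 settings. The same fit was run at E12.5, and an interaction term over both stages. SE is the log2 difference divided by the root of F. Nothing says the libraries are separate litters, so p-values measure the spread between these libraries. The script was tested on simulated data. Gene positions, types and sequences are GENCODE mouse release 21 (GRCm38), where 51 of 30615 listed IDs did not match, and RefSeq. DESeq2 was version 1.42.0.

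Named genes were Foxl2 and neighbours within 200 kb, Mir17hg, 5 sex chromosome genes, 11 sex determination genes, the 10 largest increases and decreases with non-overlapping groups and a mean of at least 1 CPM, and called members of the 29 lists; the text gives those that bear on a result and others chosen after their values were seen. Total counts were 23021098 to 69425482 at E11.5 and 13197693 to 31012525 at E12.5.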

Additional observations from a re-analysis of the deposited data

Results flagged for a closer look

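For 8 of the genes examined, the difference between mutants and XY controls at E12.5 departed from that at E11.5 by a test of the interaction with stage (edgeR, adjusted over 15412 genes). Stage differs together with library kit and dissected tissue. The change, E12.5 minus E11.5 on the log2 scale, was -2.59 for Star (SE 0.38, adjusted p = 0.0128), -3.07 for Hsd3b1, -5.52 for Cyp17a1 and -8.31 for Cyp11b1, all from higher to lower in the mutants. It was 3.70 for Xist, which was lower at E11.5 only, and -5.96 for mt-Co2, which was higher at E11.5 only. For Vegfa it was 1.23 and for Rpl13a 1.21, both called lower at E11.5 and not called at E12.5.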

How the results depend on the processing

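The number of genes called at E11.5 (215) was 200 with library sizes alone, 178 with 1 CPM in at least 3 libraries and 184 with the newer quasi-likelihood form. It was 1570 with DESeq2, of which 564 were higher, and 783 with no filter on low counts; the cause was not tested. Leaving out 1 library gave from 29 to 3375 genes. The libraries carry replicate numbers, but the numbers do not pair them: deviations of same-numbered libraries correlated at 0.020, 0.035 and -0.052, and with a replicate block 109 genes were called, 99 of them among the 215. Foxl2 kept its direction, without a call, in all alternatives but one: leaving out 1 library moved its difference from -0.22 to 0.90, negative without mutant 1. Leaving out 1 library also turned the direction of Ptgds (-0.66 to 0.32), Fst (-0.30 to 0.15), Dhh (-0.51 to 0.43) and Amh (-0.22 to 1.17), none called in any setting. Of the comparisons of single named genes across alternatives, 473 kept direction and side of the threshold, 101 lost and 12 gained a call. The 42 genes called alike at E12.5 ranged from 29 to 42. At E11.5 Foxl2 had 22 to 208 reads a library, which limits what its difference can show.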
